A study of Homo sapiens with 6 samples.

Results

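The genes described here start coagulation or activate plasminogen. They are tissue factor (F3), its inhibitors TFPI and TFPI2, the TFPI regulator ADTRP, thrombomodulin (THBD) and the endothelial protein C receptor (PROCR). The others are the plasminogen activators PLAT and PLAU, and the urokinase receptor PLAUR. The 9 genes were found by symbol among the 33496 genes listed for each library. They were grouped by function, except that ADTRP was chosen by its lower FPKM in Era+VK. Its difference is therefore given as a description, with no test, and nothing rests on it.

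All 6 libraries came from ARPE-19, an established human retinal pigment epithelium (RPE) cell line labelled wild type, treated with 5 μM erastin for 24 h. The sample titles name ARPE-19 throughout, whereas the cell line field of the labels counts up from ARPE-19 by sample, and the doses and times are from the methods of the study, not from the labels. Erastin blocks cystine import and induces ferroptosis, a form of cell death driven by iron and lipid peroxides. The Era group (n = 3) received erastin alone, and the Era+VK group (n = 3) was given 10 μM vitamin K1 (VK1) 1 h earlier. No culture without erastin was analysed here, so the values show what VK1 pretreatment changed in erastin-treated cells and not the effect of erastin. The labels do not say whether the 3 libraries of a group came from separate cultures, so p-values measure only the spread between these libraries, which may be technical. Globin transcripts set 2 libraries apart: the 6 globin genes HBG2, HBG1, HBE1, HBA1, HBA2 and HBZ summed to 233.2 and 226.6 FPKM in Era+VK replicates 2 and 3, against 0.01 to 0.19 FPKM in each of the rest.

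Vitamin K is best known as the cofactor for carboxylation of clotting factors, which then circulate in inactive form. Coagulation starts when blood meets tissue factor on a cell surface, where it binds factor VII. TFPI shuts this step off, while thrombomodulin and the endothelial protein C receptor turn thrombin towards activating protein C, an anticoagulant. On the fibrinolytic side, tissue-type and urokinase-type plasminogen activators convert plasminogen to plasmin, and serpins hold them in check. The RPE forms part of the outer blood-retina barrier, and tissue factor is abundant in many barrier cells outside the vessel lumen.

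The promoters of F3, PLAUR, ADTRP and TFPI are shown because these genes had the largest differences among the 9 genes. They are RefSeq sequences on GRCh38.p14, from 250 bases before to 50 bases after the annotated start, read 5′ to 3′ on the strand of the gene. Capitals mark TGAGTCA, the site of AP-1, a dimer of FOS and JUN proteins.

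F3 (chr1:94541710-94542009, minus strand): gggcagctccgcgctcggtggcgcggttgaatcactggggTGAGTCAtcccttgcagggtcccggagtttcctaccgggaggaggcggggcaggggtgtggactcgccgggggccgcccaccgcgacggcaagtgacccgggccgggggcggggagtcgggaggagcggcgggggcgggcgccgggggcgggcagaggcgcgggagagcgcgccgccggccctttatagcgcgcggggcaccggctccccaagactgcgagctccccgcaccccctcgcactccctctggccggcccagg

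PLAUR (chr19:43670120-43670419, minus strand): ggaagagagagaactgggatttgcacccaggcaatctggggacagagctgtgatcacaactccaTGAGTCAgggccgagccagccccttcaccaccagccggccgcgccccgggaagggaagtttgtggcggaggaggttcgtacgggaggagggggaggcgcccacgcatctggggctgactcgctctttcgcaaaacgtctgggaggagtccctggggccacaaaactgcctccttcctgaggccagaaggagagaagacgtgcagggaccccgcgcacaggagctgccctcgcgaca

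ADTRP (chr6:11778754-11779053, minus strand): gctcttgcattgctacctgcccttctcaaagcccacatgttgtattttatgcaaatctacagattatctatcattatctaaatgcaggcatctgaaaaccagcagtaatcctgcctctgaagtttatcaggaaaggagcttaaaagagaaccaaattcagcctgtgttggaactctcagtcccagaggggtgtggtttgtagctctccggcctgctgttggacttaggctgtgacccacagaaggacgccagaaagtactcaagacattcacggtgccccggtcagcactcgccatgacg

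TFPI (chr2:187554386-187554685, minus strand): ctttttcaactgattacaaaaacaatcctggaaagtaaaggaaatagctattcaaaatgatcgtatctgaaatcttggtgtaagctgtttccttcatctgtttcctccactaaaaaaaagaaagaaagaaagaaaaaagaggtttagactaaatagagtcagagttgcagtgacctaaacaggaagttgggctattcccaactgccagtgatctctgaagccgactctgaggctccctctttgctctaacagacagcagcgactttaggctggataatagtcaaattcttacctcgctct

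A RefSeq promoter was found for 7 of the 9 genes. TGAGTCA or its reverse complement TGACTCA occurred once each in the F3 and PLAUR windows, beginning at -210 and -186 from the start, and in none of the other windows. It occurred in 4.95% of all 35116 promoters of this length. The C/EBP-ATF element TGATGNAA, to which ATF4 dimers bind, was searched on both strands too and was in none of the windows of these genes, against 3.62% of all promoters. The GC box GGGCGG, on either strand, was present 4 times in F3 and not in PLAUR, ADTRP or TFPI, and 45.0% of all promoters held it. The F3 window was 77.3% G and C, against 39.3% in TFPI. These matches are letters in a window, and binding was not measured. The ADTRP, TFPI and PLAUR genes of GENCODE 29 extend upstream of these windows, so the match in PLAUR lies within the annotated gene.

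F3 was by far the most abundant of the 9 genes. Levels are FPKM, fragment counts scaled by transcript length and by library size, so genes can be compared per length. F3 (ENSG00000117525, chromosome 1 of GRCh38, 94529225 to 94541800) was at 184.05, 185.29 and 200.06 FPKM in Era replicates 1, 2 and 3. In Era+VK it was at 169.89, 161.52 and 167.65 FPKM. Every Era+VK library was below every Era library. F3 averaged 189.8 ± 8.91 FPKM with erastin alone and 166.4 ± 4.33 FPKM with VK1 added (SD, n = 3 each). On the log2(FPKM + 1) scale, used for all differences of single genes below, Era+VK minus Era was -0.19 for F3 (standard error 0.05, 95% interval -0.30 to -0.07). In limma, fitted to the 11981 genes whose mean over the libraries reached 1 FPKM, its adjusted p was 0.150 with Benjamini-Hochberg adjustment, above the threshold of 0.05. With bulk libraries, fewer cells expressing a gene and less RNA per cell cannot be told apart.

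TFPI, the Kunitz-type inhibitor of the tissue factor complex (chromosome 2, 187464230 to 187565760), was at 10.02, 10.85 and 9.75 FPKM in Era replicates 1, 2 and 3. It was at 8.43, 9.56 and 8.33 FPKM in Era+VK, so the highest Era+VK value lay just under the lowest Era value. TFPI averaged 10.2 ± 0.573 FPKM with erastin alone and 8.77 ± 0.683 FPKM with VK1 added (SD, n = 3 each). The difference was -0.20 (standard error 0.06, 95% interval -0.35 to -0.05) with a limma adjusted p of 0.214. An antisense gene shares 118 exon bases with TFPI and was at 0.452 FPKM on average, and whether strand was used in counting is not given in the sources used here.

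The ratio of tissue factor to its inhibitor was compared in each library, on the log2 of the plain FPKM ratio. It uses the same values as the separate differences of F3 and TFPI and is not independent of them. F3 was at 18.4, 17.1 and 20.5 times the FPKM of TFPI in Era replicates 1, 2 and 3, and at 20.2, 16.9 and 20.1 times in Era+VK. The ratios overlapped. Their means were 18.7 ± 1.74 (SD, n = 3) in Era and 19.1 ± 1.87 (SD, n = 3) in Era+VK, a log2 difference of 0.03 against a within-group SD of 0.14 (two-sided p = 1.0, exact permutation test, where 3 against 3 libraries can reach 0.1 at the lowest). The sign of this difference turned when Era replicate 2, Era+VK replicate 1 or Era+VK replicate 3 was left out, to -0.032, -0.013 and -0.012.

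**Figure D1:**
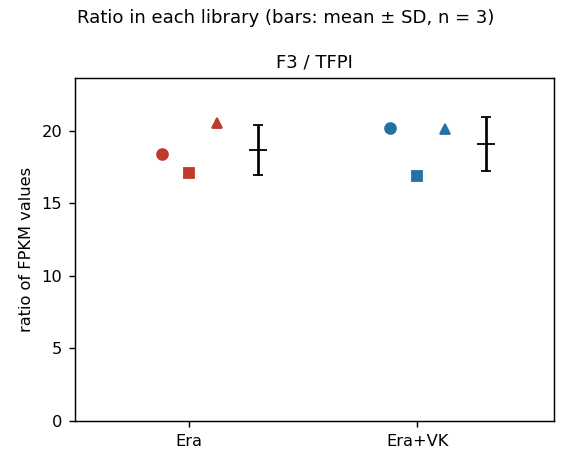
Ratio of the FPKM of F3 to that of TFPI in each library, with Era in red, Era+VK in blue, marker shapes for the replicate numbers and bars for the mean ± SD (n = 3). The ratios lie between 16.9 and 20.5, and the groups overlap.

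TFPI2, a related inhibitor that is held in the extracellular matrix and also inhibits plasmin, showed no difference beyond the spread of its libraries. It was at 8.15, 9.56 and 7.59 FPKM in Era and at 8.56, 9.90 and 8.57 FPKM in Era+VK. The groups overlapped, with replicate 2 the highest library in each. TFPI2 (chromosome 7, 93885396 to 93890991) differed by 0.09 on the log2 scale (95% interval -0.12 to 0.29, limma adjusted p of 0.668), and by 0.02 without Era replicate 3 or 0.17 without Era replicate 2. Against TFPI and TFPI2 summed, F3 was at 10.2 ± 1.23 times their FPKM in Era and 9.41 ± 0.959 times in Era+VK (SD, n = 3 each). On the log2 scale this was -0.12 (two-sided p = 0.4, exact permutation test).

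ADTRP encodes a membrane protein found to raise TFPI expression and activity in endothelial cells. It was at 10.51, 11.59 and 10.28 FPKM in Era replicates 1, 2 and 3, and at 7.32, 7.99 and 7.42 FPKM in Era+VK. No library of the Era+VK group came near the Era range. ADTRP averaged 10.8 ± 0.699 FPKM with erastin alone and 7.58 ± 0.361 FPKM with VK1 added (SD, n = 3 each), which is -0.46 on the log2 scale. ADTRP lies on chromosome 6 of GRCh38 from 11712054 to 11807046. Its paralogue AIG1, which encodes a hydrolase of the same family, averaged 5.80 ± 0.0907 FPKM with erastin alone and 6.23 ± 0.439 FPKM with VK1 added (SD, n = 3 each), and the groups overlapped (log2 difference 0.09, limma adjusted p of 0.499). In Era, ADTRP and TFPI had overlapping levels, whereas in Era+VK ADTRP was below TFPI in every library.

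Across the 6 libraries, the genes whose log2(FPKM + 1) followed ADTRP most closely were the divergent transcript CNN3-DT (Pearson r = 0.995), the small nucleolar RNA host gene SNHG12 (r = 0.995) and the lysyl-tRNA synthetase gene KARS1 (r = 0.992). CNN3-DT averaged 8.74 FPKM with erastin alone and 6.82 FPKM with VK1 added. SNHG12 had 2.46 and 2.22 FPKM, and KARS1 had 32.2 and 29.7 FPKM. In all, 82 genes reached an r above 0.95 with ADTRP. This is a description over 6 libraries that fall into the 2 groups, not a test.

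**Figure D2:**
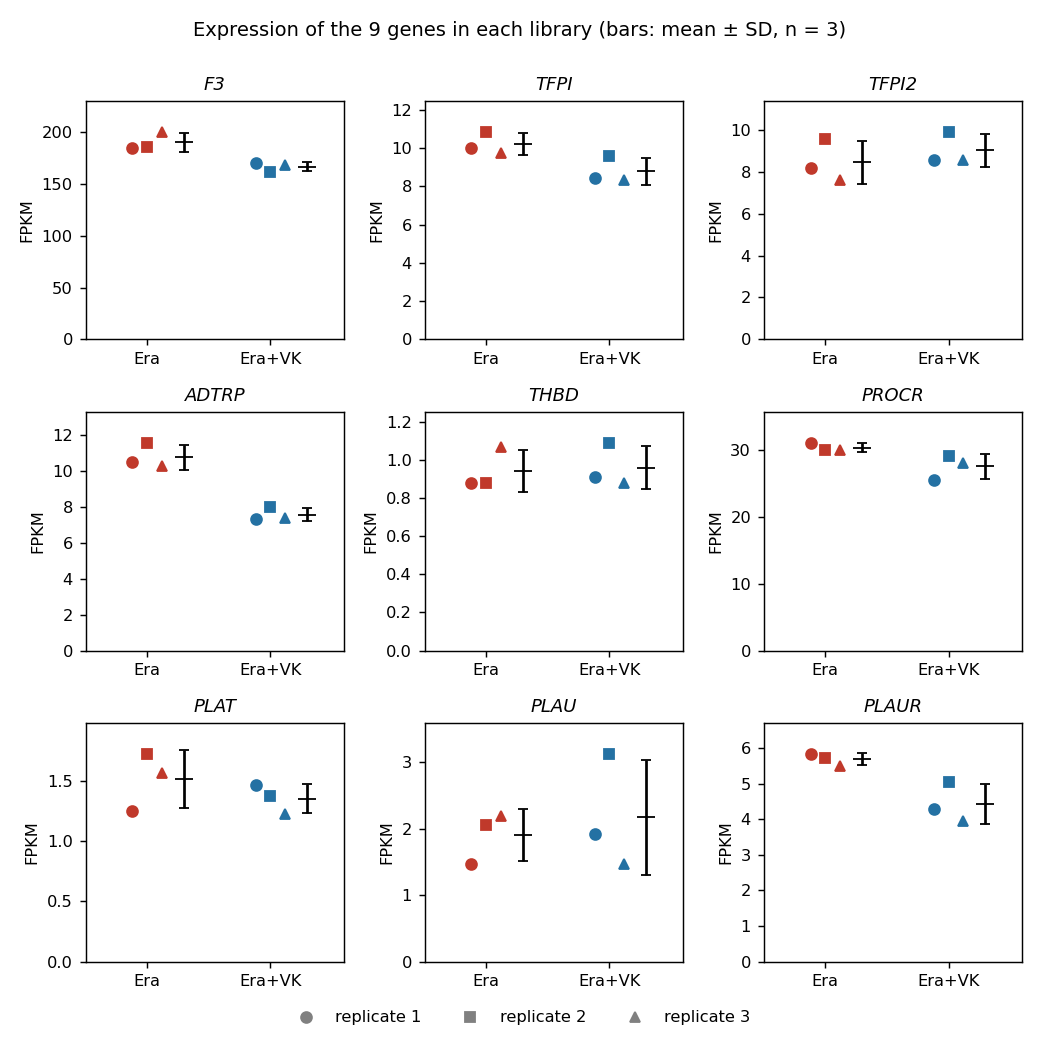
FPKM of each of the 9 genes in the 3 Era (red) and 3 Era+VK (blue) libraries, with the marker shape giving the replicate number and black bars the mean ± SD (n = 3). In F3, TFPI, ADTRP, PROCR and PLAUR the Era+VK libraries all sit below the Era libraries, while TFPI2, THBD, PLAT and PLAU overlap.

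PROCR, the endothelial protein C receptor, was the next most abundant gene after F3. It was at 31.03, 29.94 and 29.98 FPKM in Era and at 25.46, 29.07 and 28.00 FPKM in Era+VK. Era+VK replicate 1 was the lowest, and the other Era+VK libraries lay close under the Era range. PROCR (chromosome 20, 35172073 to 35216240) averaged 30.3 ± 0.618 FPKM with erastin alone and 27.5 ± 1.85 FPKM with VK1 added (SD, n = 3 each). Its log2 difference was -0.14 (standard error 0.06, 95% interval -0.27 to -0.01), with a limma adjusted p of 0.291. Without Era+VK replicate 1 it was -0.08. PROCR shares 218 exon bases with a gene on the opposite strand, and TFPI2 shares 79 and 44 with such genes.

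THBD (chromosome 20, 23045633 to 23049741), or thrombomodulin, which binds thrombin and presents it to protein C, was barely expressed. It was at 0.88, 0.88 and 1.07 FPKM in Era and at 0.91, 1.09 and 0.88 FPKM in Era+VK. The groups overlapped almost fully. Its mean of 0.952 FPKM over all libraries was under the minimum of 1 FPKM, so THBD was not tested.

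PLAUR, the receptor that holds urokinase at the cell surface (chromosome 19, 43646095 to 43670547), showed the largest difference among the tested genes other than ADTRP. It was at 5.83, 5.73 and 5.50 FPKM in Era replicates 1, 2 and 3, and at 4.29, 5.05 and 3.96 FPKM in Era+VK. All Era+VK libraries were lower, and they were also more spread than the Era libraries. PLAUR averaged 5.69 ± 0.169 FPKM with erastin alone and 4.43 ± 0.559 FPKM with VK1 added (SD, n = 3 each). That difference was -0.30 on the log2 scale (standard error 0.08, 95% interval -0.48 to -0.13). The adjusted p of PLAUR was 0.139 in limma. Over the alternatives it ran from 0.0522 without Era+VK replicate 2 to 0.341 without Era replicate 2, always above the threshold. Over the 6 libraries, the genes most like PLAUR were SULT1C2, GAS5 and TRIM22, each with a Pearson r of 0.987. SULT1C2 encodes a sulfotransferase, GAS5 a small nucleolar RNA host transcript and TRIM22 an interferon-inducible ubiquitin ligase.

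PLAU, the gene of urokinase, the ligand of this receptor, was at 1.46, 2.06 and 2.19 FPKM in Era and at 1.92, 3.12 and 1.46 FPKM in Era+VK. Era+VK replicate 2 was the highest of all libraries, and Era+VK replicate 3 equalled the lowest Era library. PLAU (chromosome 10, 73909177 to 73917497) differed by 0.10 on the log2 scale (95% interval -0.33 to 0.53, limma adjusted p of 0.835). It was -0.11 without Era+VK replicate 2 and -0.01 without Era replicate 1, so its direction rested on single libraries. C10orf55, on the opposite strand, shares 916 exon bases with PLAU and was at 0.015 FPKM on average.

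PLAT, which encodes tissue-type plasminogen activator, was at 1.25, 1.72 and 1.56 FPKM in Era and at 1.46, 1.37 and 1.22 FPKM in Era+VK. The groups overlapped (log2 difference -0.09, 95% interval -0.30 to 0.12, limma adjusted p of 0.659). Without Era replicate 1 the difference of PLAT was -0.17, and without Era replicate 2 it was -0.03. PLAU and PLAT were the least abundant of the 9 genes after THBD.

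**Figure D3:**
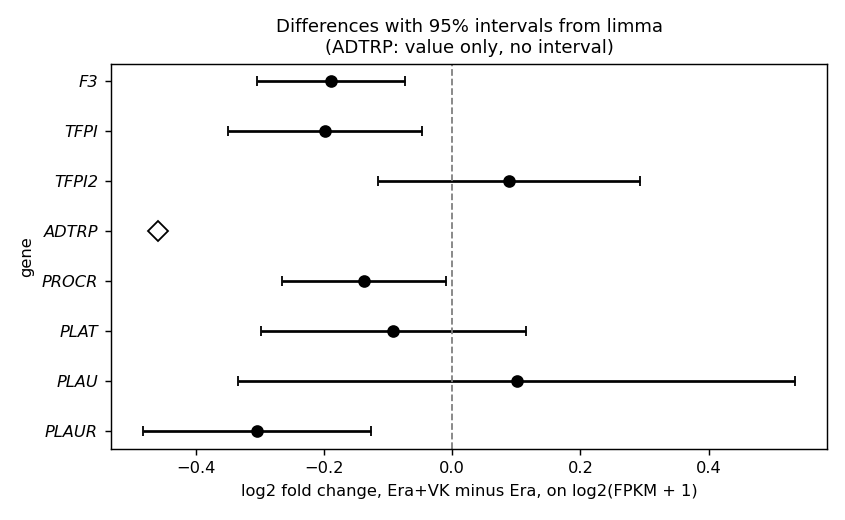
Log2 fold change of Era+VK minus Era on log2(FPKM + 1) for the 8 genes that reached the minimum mean of 1 FPKM, with 95% intervals from limma as bars for 7 of them and the value alone for ADTRP (open diamond). The intervals of F3, TFPI, PROCR and PLAUR lie below 0 before adjustment for multiple testing, and those of TFPI2, PLAT and PLAU include 0.

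Of the 9 genes, 8 reached a mean of 1 FPKM. Apart from ADTRP, 0 of the other 7 had an adjusted p under 0.05 in limma. Over all genes tested, 0.618% passed in either direction and 0.484% were called lower. The calls numbered 74, and 5 or fewer when any 1 of the Era libraries was left out. At an unadjusted p under 0.05 there were 4 of the 7 (F3, TFPI, PROCR and PLAUR), against 15.8% of all genes. The same 4 were lower in every Era+VK library than in every Era library, as were 7.04% of all genes, whereas 15.1% of all genes were higher in this way and 0 of the 7 were. These shares describe the group and do not test it.

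The order of the levels was nearly the same in both groups. In Era it ran F3, PROCR, ADTRP, TFPI, TFPI2, PLAUR, PLAU, PLAT and THBD. ADTRP and TFPI overlapped, as did PLAU and PLAT, and the other neighbours stood apart. F3 was 6.26 times PROCR in Era and 6.05 times in Era+VK. In Era+VK the order of the middle genes was TFPI2, TFPI and ADTRP, with TFPI2 and TFPI overlapping.

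Inhibitors of the activators and of plasmin were then examined. SERPINB2, which encodes an inhibitor of urokinase, was at 8.32, 7.54 and 8.91 FPKM in Era replicates 1, 2 and 3, and at 5.80, 6.77 and 5.93 FPKM in Era+VK. The groups did not overlap. SERPINB2 averaged 8.26 ± 0.687 FPKM with erastin alone and 6.17 ± 0.527 FPKM with VK1 added (SD, n = 3 each, log2 difference -0.37, limma adjusted p of 0.0841). SERPINE2, encoding protease nexin 1, averaged 2.02 ± 0.101 FPKM and 1.58 ± 0.165 FPKM (SD, n = 3 each, log2 difference -0.23, limma adjusted p of 0.199). Of the 5 tested genes among plasminogen, plasmin and their inhibitors, these 2 were lower in all Era+VK libraries and 0 were higher in all of them. Over all genes tested, 7.04% were lower and 15.1% higher in this way. The median log2 difference of the 5 genes was -0.08. SERPINB8 and SERPINB6, further intracellular serpins, overlapped between the groups, with means of 6.37 and 7.37 FPKM under erastin alone and of 5.97 and 7.61 FPKM with VK1 added. SERPINI1, which encodes neuroserpin, an inhibitor of tissue-type plasminogen activator, was at 1.21, 0.99 and 1.01 FPKM in Era and at 1.78, 1.2 and 1.6 FPKM in Era+VK. It was higher on average in Era+VK with a small overlap (log2 difference 0.28, 95% interval 0.05 to 0.52, limma adjusted p of 0.244).

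The receptors and partners of these proteases were then read from lists of pathway genes. Over the 8 lists, 74 genes were named, 65 were in the files and 43 were tested. In limma 0 of the 43 passed, in either direction, and 13 had an unadjusted p under 0.05, beside 15.8% of all genes tested. Their groups did not overlap for 10 genes lower and 6 genes higher in Era+VK, beside 7.04% and 15.1% of all genes. The median log2 difference of the 43 genes was -0.03, and that of all genes tested was 0.03.

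Of the protease-activated receptors, through which thrombin and other coagulation proteases signal to cells, 3 of 4 were tested. F2R, which encodes the thrombin receptor PAR1, was at 99.07, 108.03 and 90.67 FPKM in Era and at 87.86, 88.33 and 86.05 FPKM in Era+VK. F2RL2, which encodes PAR3, was at 25.89, 28.28 and 23.88 FPKM in Era and at 21.31, 21.99 and 19.25 FPKM in Era+VK. Both were lower in all Era+VK libraries, by -0.18 on the log2 scale for F2R and -0.31 for F2RL2, with limma adjusted p of 0.248 and 0.123. F2RL1, which encodes PAR2, averaged 1.57 FPKM with erastin alone and 1.91 FPKM with VK1 added and overlapped, and F2RL3 was at 0.04 FPKM or less.

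All 9 plasminogen receptor and urokinase clearance genes were tested, with a median log2 difference of -0.06. ENO1, the glycolytic enzyme that also binds plasminogen at the cell surface, averaged 785.4 ± 9.49 FPKM with erastin alone and 725.8 ± 2.27 FPKM with VK1 added (SD, n = 3 each, log2 difference -0.11, limma adjusted p of 0.290). ANXA2 and S100A10, which together form a receptor for plasminogen and its tissue-type activator, averaged 143.9 and 111.7 FPKM under erastin alone, against 135.8 and 112.3 FPKM with VK1 added. The plasminogen receptor gene PLGRKT was lower in all Era+VK libraries, at 1.97 to 2.44 FPKM against 2.78 to 3.41 FPKM (log2 difference -0.34, limma adjusted p of 0.143). LRP1, the endocytic receptor that clears complexes of urokinase, averaged 118.3 FPKM with erastin alone and 108.7 FPKM with VK1 added, the latter with Era+VK replicate 2 at 91.2 FPKM. SORL1, of the same receptor family, was higher in all Era+VK libraries, at 2.19 to 2.37 FPKM against 1.40 to 1.77 FPKM (log2 difference 0.33, limma adjusted p of 0.108).

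The coagulation factors themselves were nearly absent. Of 16 listed genes, 9 were in the files and none of these reached a mean of 1 FPKM, F8 being the highest at 0.57 to 0.74 FPKM. Among 7 circulating anticoagulant proteins only PROS1, the gene of protein S, passed the minimum. PROS1 averaged 46.4 ± 1.27 FPKM with erastin alone and 48.1 ± 0.640 FPKM with VK1 added (SD, n = 3 each, log2 difference 0.05, limma adjusted p of 0.576). Tissue factor on a cell needs exposed phosphatidylserine for full activity, and 11 genes of that process were tested, with a median log2 difference of 0.02. The scramblase gene ANO6 averaged 20.6 FPKM with erastin alone and 22.2 FPKM with VK1 added. The acid sphingomyelinase gene SMPD1, at 32.6 and 36.8 FPKM, and the scramblase family gene PLSCR4, at 6.35 and 7.35 FPKM, were higher in all Era+VK libraries (limma adjusted p of 0.159 and 0.160). ANXA5, P4HB and TMEM30A, the most abundant of the list, differed by less than 0.1 on the log2 scale. TMEM30A was also higher in all Era+VK libraries, averaging 50.5 FPKM with erastin alone and 53.0 FPKM with VK1 added (limma adjusted p of 0.460). Of the 11 genes, 3 were higher and 0 lower in this way, beside 15.1% and 7.04% of all genes tested.

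**Figure D4:**
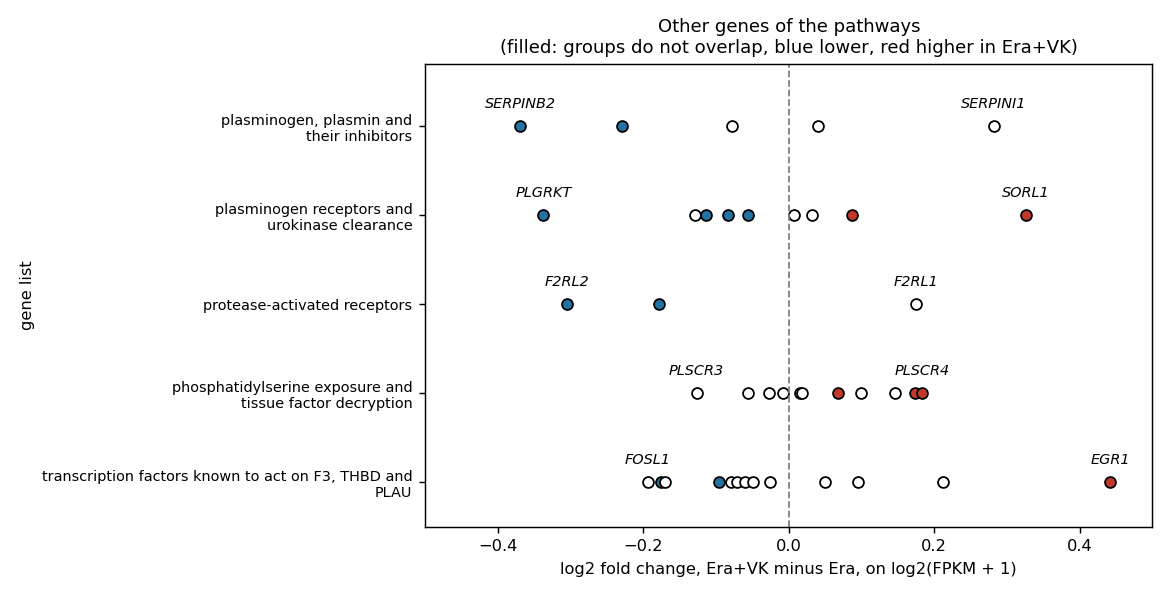
Log2 fold change of Era+VK minus Era on log2(FPKM + 1) for each tested gene of the 5 pathway lists with at least 3 tested genes, 1 point a gene, filled where Era and Era+VK values are fully separate (blue lower, red higher in Era+VK) and open otherwise. SERPINB2 at -0.37, PLGRKT at -0.34 and F2RL2 at -0.31 are the lowest of their lists, and EGR1 at 0.44 is the highest point.

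As context, the stress-response transcription factor gene ATF4 and its target ASNS, the gene of asparagine synthetase, differed by -0.55 and -0.95 on the log2 scale in the same fit (limma adjusted p of 0.0128 and 0.0109), each by more than F3, TFPI, PROCR or PLAUR. Of the 10 genes in the list of ATF4 and its targets, 5 passed the threshold and 9 had groups that did not overlap, all lower. Over all genes tested, 0.484% were called lower and 7.04% were lower without overlap. In this list TRIB3, VEGFA, SESN2, ATF3 and DDIT3 did not pass, with log2 differences of -0.45, -0.25, -0.19, -0.15 and 0.07. All of them but TRIB3 differed by less than PLAUR. The study had reported ASNS, PSAT1, CHAC1 and VEGFA as lower from these same RNA-seq data, so these counts are context and not a test. It called the fall of VEGFA significant, whereas VEGFA was lower in every Era+VK library here with a limma adjusted p of 0.0868. The study also reported lower VEGFA by qPCR, western blot and ELISA, and lower ASNS, PSAT1 and CHAC1 by qPCR.

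All 10 erythroid markers were in the files, with sums of 0.07 to 0.21 FPKM in Era, 0.14 FPKM in Era+VK replicate 1 and 238.9 and 231.8 FPKM in Era+VK replicates 2 and 3. With these 2 libraries left out, in a fit that assumes the lone Era+VK library to vary like the Era libraries, the log2 differences were -0.50 for ADTRP, -0.34 for PLAUR, -0.25 for TFPI, -0.24 for PROCR and -0.16 for F3, and 0 of the 7 genes passed. With all libraries the differences were -0.46, -0.30, -0.20, -0.14 and -0.19 in the same order, so that of F3 was smaller without the 2 libraries. The part of the globin transcripts in the results was not tested.

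Endothelial cells, platelets and monocytes are usual sources of many of these gene products in blood and vessels. Endothelial markers (9 of 10 in the files) summed to 0.93 to 1.33 FPKM in Era and 1.04 to 1.43 FPKM in Era+VK, with CDH5, TEK and ERG at 0.02 FPKM or less. Megakaryocyte and platelet markers (5 of 7) summed to 0.48 to 0.64 FPKM and 0.51 to 0.61 FPKM. Of 7 monocyte and macrophage markers, CD68, a lysosomal protein, made up nearly all the signal, with sums of 43.7 to 51.7 FPKM in Era and 34.9 to 38.7 FPKM in Era+VK, while CD14 and ITGAM were at 0.06 FPKM or less. The part of CD68-expressing cells in the results was not tested. Hepatocyte markers (2 of 7) summed to 0.97 to 1.30 FPKM in all libraries, with ALB at 0.03 FPKM or less. Of 12 RPE markers, 11 were in the files and 6 reached a mean of 1 FPKM. The epithelial keratins KRT8 and KRT18 and the transcription factors OTX2 and MITF were well expressed, between 15.49 FPKM for MITF and 245.8 FPKM for KRT18, whereas the visual cycle gene RPE65 was at 0.02 FPKM or less. PMEL was at 1.07 to 1.42 FPKM. BEST1, which encodes bestrophin, a chloride channel of the RPE, varied widely within both groups, at 2.65, 0.65 and 56.98 FPKM in Era and at 36.45, 0.60 and 4.80 FPKM in Era+VK. Era replicate 3 and Era+VK replicate 1 stood far above the rest for BEST1. MITF and KRT8 were higher in all Era+VK libraries, by 0.19 and 0.15 on the log2 scale (limma adjusted p of 0.151 and 0.270), and their part in the results was not tested. They were 2 of the 6 tested RPE markers, and 0 were lower in all Era+VK libraries. Over all genes tested, 15.1% were higher and 7.04% lower in this way.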

How the data were processed

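RNA-seq values of 3 Era and 3 Era+VK libraries were used. Gene-level FPKM with 2 decimals were deposited by the authors, made from paired-end reads. The submitters' processing notes name cutadapt, HISAT2 and StringTie 2.1.6 without their roles, and a mouse genome build, although the identifiers in the files are those of human Ensembl genes. The annotation release and any filter are not given in the sources used here. FPKM are relative to all fragments of a library, and low values showed no whole-read steps (concentration 0.176 to 0.218, against at least 0.923 for simulated whole reads), so depth is unknown and no count model or counting interval was used. The row of F3 also carries the Entrez identifier of CNTN1, which has F3 as a synonym in RefSeq, and the Ensembl identifier is that of tissue factor.

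From these values, log2(FPKM + 1) of the 11981 genes whose mean reached 1 FPKM was fitted in R 4.3.3 with limma 3.58.1 (empirical Bayes with a trend), Era+VK minus Era, with no covariate, Benjamini-Hochberg adjustment over all genes and a threshold of 0.05. On simulated data for this comparison over 11981 genes, 191 of 200 changed genes (log2 change 0.8) were recovered with 7 false calls, and 0 genes were called when nothing was changed. The changed genes were drawn only from the more abundant ones. Their change was larger than that of any of the 7 tested genes other than ADTRP. The simulation therefore gives no rate of recovery for differences of that size. The ratio of F3 to TFPI was compared on the log2 scale by exact permutation of the libraries. Mitochondrially encoded genes held 16.0% to 18.5% of the FPKM, and log2(FPKM + 1) of tested genes correlated at 0.984 to 0.993 within groups. For gene positions, Ensembl identifiers were looked up in GENCODE 29 (GRCh38).

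The genes, the lists and the tests were chosen with earlier results of these data known. Named are the 9 genes, ATF4 and ASNS as context, every pathway gene past the threshold (there were 0) and the most abundant genes of each list, and the 3 genes most correlated with ADTRP and with PLAUR, the tested gene of lowest p. A further planned comparison is not reported here. Further named genes were picked after seeing their values. Alternatives were a pseudocount of 0.1, no filter, 1 FPKM in every library, quantile normalization, rescaling without mitochondrially encoded genes, a replicate block and each library left out. Leaving out the 2 libraries with globin transcripts together was added after the data were examined.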

Additional observations from a re-analysis of the deposited data

How the results depend on the processing

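Under each alternative, 0 of the 7 tested genes other than ADTRP and 0 of the 43 tested pathway genes passed the threshold in limma. F3, TFPI, PROCR and PLAUR kept their direction. ADTRP kept its direction too, but it was chosen by its lower FPKM in these same libraries, so this lends it no support. The log2 fold change ranged from -0.50 to -0.41 for ADTRP, -0.21 to -0.14 for F3, -0.26 to -0.16 for TFPI, -0.24 to -0.08 for PROCR and -0.38 to -0.24 for PLAUR. It ranged from 0.02 to 0.17 for TFPI2 and -0.17 to -0.02 for PLAT. That of PLAU ranged from -0.11 to 0.27 with each library left out in turn. The log2 difference of the F3 to TFPI ratio was -0.032 to 0.11 with a library left out and -0.12 with TFPI2 added to TFPI.

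Over all genes, 74 were called, against 1 with no filter, 122 with 1 FPKM in every library, 112 with quantile normalization, 35 without Era+VK replicates 2 and 3, and 2 to 70 with each library left out. The 5 or fewer calls were those with Era replicate 1, 2 or 3 left out. With the replicate number as a block, 42 genes were called. Deviations of same-numbered libraries correlated at 0.0709, 0.103 and 0.0208. Era replicates 1 and 2 correlated best with the Era+VK library of their own number, and Era replicate 3 with Era+VK replicate 1. Nothing in the labels ties the numbers, so whether the samples are paired is unknown. The cause of these shifts in counts was not tested. Depth is unknown, so no limit of detection can be given for THBD or the clotting factors.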

Other observations

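The transcription factors known to act on F3, THBD or PLAU showed no shared direction. Of 16 listed, 13 were tested and 0 passed in limma, with a median log2 difference of -0.06. An unadjusted p under 0.05 was found for 3 of them, beside 15.8% of all genes tested. EGR1, an immediate early factor that can induce F3, was at 1.88, 0.94 and 1.43 FPKM in Era and at 2.31, 2.35 and 2.07 FPKM in Era+VK. All Era+VK libraries were higher for EGR1 (log2 difference 0.44, limma adjusted p of 0.195). Its part in the level of F3 was not tested. ETS1 averaged 15.4 ± 0.335 FPKM with erastin alone and 13.6 ± 1.08 FPKM with VK1 added (SD, n = 3 each), and the groups did not overlap (log2 difference -0.18, limma adjusted p of 0.224). The AP-1 genes JUN, JUND and FOSL2 were the most abundant, averaging 70.6, 69.8 and 38.0 FPKM under erastin alone against 66.8, 68.6 and 36.4 FPKM with VK1 added, and each overlapped between the groups. FOSL1 averaged 20.3 FPKM with erastin alone and 17.6 FPKM with VK1 added (log2 difference -0.19, limma adjusted p of 0.477). JUNB averaged 9.41 and 11.1 FPKM (log2 difference 0.21, limma adjusted p of 0.277), and both genes overlapped between the groups. FOS and FOSB stayed under 0.5 FPKM in every library. KLF2, which drives THBD in endothelial cells, averaged 2.67 ± 0.517 FPKM with erastin alone and 2.25 ± 0.194 FPKM with VK1 added (SD, n = 3 each), and the groups overlapped.

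The files annotate 62 genes with the KEGG map of complement and coagulation cascades, a grouping looked at after the data were examined. Leaving out the 9 genes described above, 17 of them were tested, 0 passed in limma and 8 had an unadjusted p under 0.05, beside 15.8% of all genes tested. Their median log2 difference was 0.02, with 5 genes lower and 2 higher without overlap between the groups, beside 7.04% and 15.1% of all genes tested. Genes of the pathway lists were not left out of the 17, so these counts are not independent of those given for the lists.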
